A study of Mus musculus with 16 samples.

Results

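RNA of primary mouse astrocytes was sequenced, and the 39 genes described here code for the enzymes and carriers of glycolysis, lactate and glycogen metabolism, with pyruvate dehydrogenase, the pentose phosphate pathway and the regulator Hif1a. They were chosen by name as members of these pathways, and 39 of 39 were found among the 16707 genes of the deposited expression table. The wild-type (WT) astrocytes came from C57BL/6J pups, and the Nlrx1-/- (KO) astrocytes came from pups of that background that lack Nlrx1, a mitochondrial member of the NLR family that restrains innate immune signalling. Cells were taken from whole brains at postnatal day 6 (P6), selected with beads against the astrocyte antigen ACSA-2, and grown in serum-free medium with heparin-binding EGF. They then received either vehicle (water) or 500 ng/mL lipopolysaccharide (LPS) with 10 ng/mL interferon-γ (IFNγ), a stimulus that makes astrocytes reactive, for 24 h. Each of the 4 litters per genotype gave a vehicle library and a stimulated library, so that the design holds 16 libraries in 4 conditions (WT vehicle, WT LPS + IFNγ, KO vehicle and KO LPS + IFNγ). No litter had both genotypes, so genotypes were compared across litters and treatments within them. The deletion was present in every cell of the pups, and the cultures were bulk samples.

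Glycolysis turns glucose into pyruvate. Hexokinase traps the sugar, phosphofructokinase commits it to the pathway, and pyruvate kinase closes it. Pyruvate is then reduced to lactate by lactate dehydrogenase or enters the mitochondrion through pyruvate dehydrogenase, which the PDK kinases switch off. Astrocytes are known for making much of their ATP by glycolysis, for releasing lactate that neurons can use, and for holding most of the glycogen of the brain. Glucose 6-phosphate can also leave for the pentose phosphate pathway, which supplies NADPH, or for glycogen.

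Levels are given as log2 of counts scaled to library size (log2 CPM, normalised by the authors with TMM factors), and a response is the log2 level after LPS + IFNγ minus that in the vehicle well of the litter. Libraries held between 27259420 and 43752903 read pairs assigned by Salmon. Nlrx1 itself lay between 4.08 and 4.44 log2 CPM in the 8 WT libraries and between 1.09 and 2.96 in the 8 KO libraries, so every KO library was below every WT library. Of the 8 astrocyte markers all were in the table, with a median summed level of 4240 TPM (a level per transcript length) in WT vehicle libraries, 3371 in stimulated WT, 2910 in KO vehicle and 2408 in stimulated KO libraries. Of 8 microglial markers only P2ry12 passed the authors' filter, and their summed level was at most 1.75 TPM in any library. Oligodendrocyte lineage markers (7 of 7 in the table) had median summed levels of 399, 185, 172 and 52.7 TPM in the same order of conditions. Ependymal markers (2 of 3 in the table) had medians of 158, 92.4, 112 and 64.7 TPM, and vascular or fibroblast markers (3 of 6) had medians of 8.28, 6.17, 6.46 and 4.25 TPM. The highest KO library of this last sum was above every WT library in vehicle (16.1 against at most 10.2 TPM). After LPS + IFNγ the same held (12.1 against at most 7.76 TPM). Dcn then had a higher mean in KO than in WT (0.19 and -0.98 log2 CPM). Pdgfrb (2.42 and 3.1) and Col1a1 (2.81 and 3.03) had lower means. In vehicle Col1a1 had the higher mean in KO, and Pdgfrb and Dcn the lower. Neuronal markers (6 of 6) stood at 38.1, 94.2, 37.0 and 88.1 TPM. Of these Tubb3 differed most between treatments (mean 3.34 and 6.02 log2 CPM in WT vehicle and stimulated WT). Stmn2 (0.53 and 1.88) and Snap25 (1.33 and 1.78) were also higher after stimulation. Rbfox3 (1.66 and 0.77), Syp (4.38 and 4.07) and Syt1 (0.06 and -0.18) were lower, and the KO means of these markers moved in the same directions. The medians of the astrocyte, oligodendrocyte lineage, ependymal and vascular or fibroblast sums were thus lower after LPS + IFNγ than in vehicle. These medians were also lower in KO than in WT. Between the genotypes the ranges of these sums overlapped in both treatments, except those of the ependymal sum after LPS + IFNγ. The part of these markers in the results below was not tested. Single astrocyte markers differed from the sum, since Aldh1l1 had means of 9.53, 10.11, 9.69 and 10.06 and Slc1a3 of 11.13, 11.37, 11.18 and 11.33 log2 CPM in the 4 conditions. Gfap, Aqp4, Slc1a2, Sox9, Gja1 and S100b had lower means in KO than in WT in both treatments. In such bulk samples, fewer cells of a type and less RNA per cell cannot be told apart.

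Of the genes that rose or fell in both genotypes, the promoters of the 3 that rose most (Hk2, Pfkp and Pdk3) and the 2 that fell most (Pygb and Ldhb) are shown so that the windows of genes that moved in opposite directions can be read side by side. Each window runs from 250 bases before to 50 bases after a RefSeq transcription start (mouse assembly GRCm38.p6, whose coordinates differ from the GRCm39 coordinates used for genes elsewhere) and is written 5′ to 3′ on the strand of the gene. Capitals mark the core of the hypoxia response element bound by HIF-1, ACGTG or GCGTG, on either strand, so that CACGT and CACGC also appear.
Hk2 (chr6:82774405-82774704, minus strand): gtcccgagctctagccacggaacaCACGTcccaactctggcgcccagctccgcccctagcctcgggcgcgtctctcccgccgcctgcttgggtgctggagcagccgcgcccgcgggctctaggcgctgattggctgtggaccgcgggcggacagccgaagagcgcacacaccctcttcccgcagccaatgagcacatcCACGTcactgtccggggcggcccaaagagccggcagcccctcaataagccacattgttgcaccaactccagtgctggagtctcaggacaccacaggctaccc
Pfkp (chr13:6648722-6649021, minus strand): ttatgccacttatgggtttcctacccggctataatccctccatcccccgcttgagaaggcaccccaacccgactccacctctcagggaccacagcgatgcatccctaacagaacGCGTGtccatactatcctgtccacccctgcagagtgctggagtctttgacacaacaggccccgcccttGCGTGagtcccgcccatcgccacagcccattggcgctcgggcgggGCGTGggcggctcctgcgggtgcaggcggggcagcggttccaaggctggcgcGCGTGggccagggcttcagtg
Pdk3 (chrX:93832101-93832400, minus strand): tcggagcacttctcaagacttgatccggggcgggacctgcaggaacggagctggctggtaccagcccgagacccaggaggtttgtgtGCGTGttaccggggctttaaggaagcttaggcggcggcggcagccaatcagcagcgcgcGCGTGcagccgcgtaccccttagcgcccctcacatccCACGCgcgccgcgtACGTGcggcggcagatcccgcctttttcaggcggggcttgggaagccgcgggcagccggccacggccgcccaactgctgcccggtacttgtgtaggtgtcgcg
Pygb (chr2:150786546-150786845, plus strand): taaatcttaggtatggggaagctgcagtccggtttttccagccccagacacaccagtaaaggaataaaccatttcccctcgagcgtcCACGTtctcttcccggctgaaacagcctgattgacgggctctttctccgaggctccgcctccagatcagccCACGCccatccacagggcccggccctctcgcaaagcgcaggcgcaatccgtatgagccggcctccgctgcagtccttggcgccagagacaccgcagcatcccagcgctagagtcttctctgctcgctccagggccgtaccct
Ldhb (chr6:142507908-142508207, minus strand): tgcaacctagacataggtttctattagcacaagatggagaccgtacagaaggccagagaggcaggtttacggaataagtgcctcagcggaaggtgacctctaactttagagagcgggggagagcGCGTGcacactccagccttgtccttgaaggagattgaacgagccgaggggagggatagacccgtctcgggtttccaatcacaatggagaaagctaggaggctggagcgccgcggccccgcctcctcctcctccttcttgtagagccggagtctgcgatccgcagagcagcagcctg

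The HIF core occurred 2 times in the Hk2 window, 4 times in each of the Pfkp and Pdk3 windows, 2 times in the Pygb window and 1 time in the Ldhb window. Genes that rose and genes that fell therefore both held it. Over the 54 windows of the 38 members with a RefSeq promoter, 43 windows (79.6%) held the core, against 43.8% of all 32851 windows, and their median GC content was 60.7% against 52.7%. A second motif was searched in the same windows, the GAS motif TTCNNNGAA. It occurred in 2 of the 54 member windows (3.7%), against 8.3% of all windows, and in none of the windows printed above. These are matches of letters in the windows and do not mark binding.

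Per transcript length, enzymes of the lower pathway were the most abundant members and hexokinase 2 and the lactate carrier Slc16a3 the least. In WT vehicle libraries Gapdh stood at 2135 ± 88.9 TPM (SD, n = 4), Pkm at 938 ± 62.1 TPM, Eno1 at 911 ± 82.2 TPM, Ldhb at 815 ± 109 TPM and Aldoa at 766 ± 37.7 TPM. At the other end, Hk2 stood at 1.37 ± 0.63 TPM and Slc16a3 at 0.353 ± 0.0863 TPM. Slc16a3, the carrier that exports lactate from many glycolytic cells, had no more than 23 reads in any library and could not be assessed at this depth. Its relative Slc16a1 was at 42.2 ± 5.03 TPM.

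In families with several isozymes, 1 member usually dominated, as shares of the summed TPM of the family show. Hk1 made up 98.2% ± 1.02 (SD, n = 4) of Hk1 plus Hk2 in WT vehicle, and Pfkm, usually called the muscle form, 79.9% ± 1.34 of the phosphofructokinases. Ldhb, the heart-type subunit that favours pyruvate formation, held 73.8% ± 6.2 of the lactate dehydrogenase transcripts. Pygb, the brain glycogen phosphorylase, held 98.8% ± 0.27 of its pair. Aldoa held 63.9% ± 2.32 against Aldoc, the aldolase that marks astrocytes among brain cells, and Pdk2 held 63.8% ± 1.27 of the 4 PDK kinases. Leaving the PDK kinases and the Pfkfb genes aside, the leading forms were the same in all 4 group means. In single libraries Ldha was ahead of Ldhb in KO vehicle litter 2 (51.3%) and in stimulated KO litters 2 (50.75%) and 4 (51.95%). Pfkfb3 led its family in WT vehicle (49.1% ± 4.3), stimulated WT (42.4% ± 4.61) and stimulated KO libraries (41.9% ± 1.45). In KO vehicle Pfkfb2 led in the mean, at 40.5% ± 3.77 against 34.3% ± 7.98 for Pfkfb3. In litter 1 of that group Pfkfb3 was ahead (39.8% against 36.9%). The transcripts paired with the symbol Pdk3 left its TPM short by 0.67 to 0.82 on the log2 scale, so the Pdk2 shares are high estimates, and which of Pdk2 and Pdk3 led in stimulated KO libraries could not be settled.

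**Figure D1:**
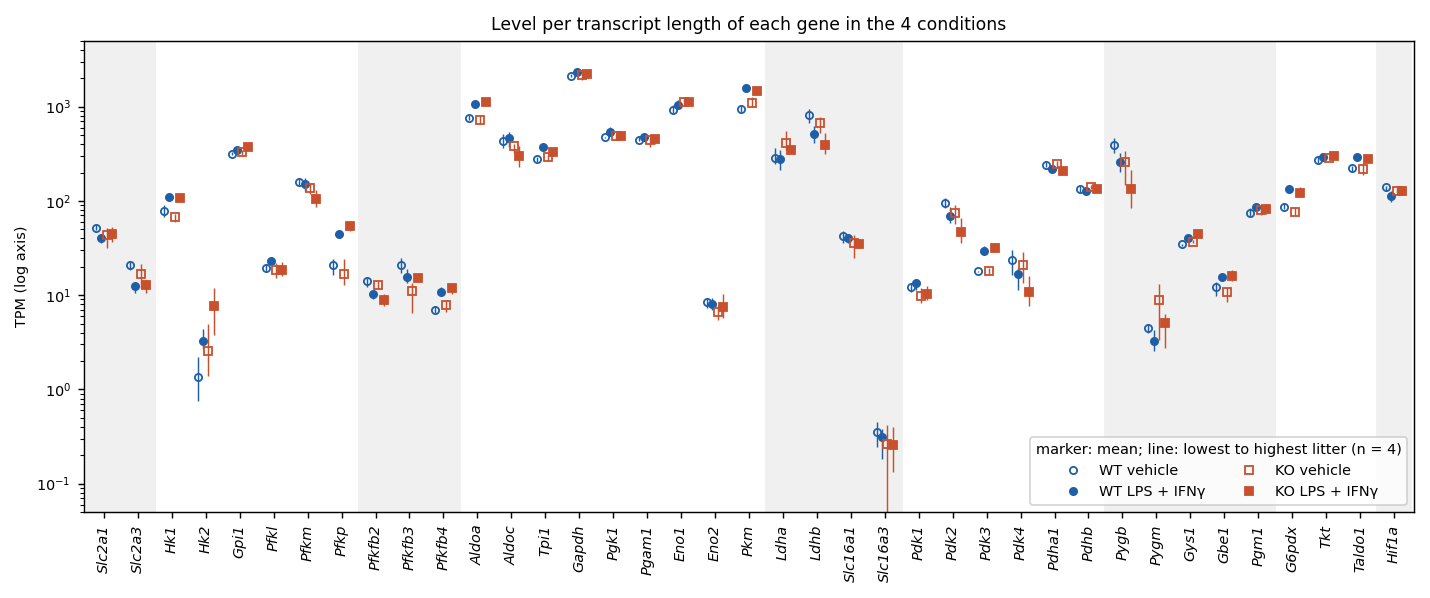
Level per transcript length (TPM, log axis) of each of the 39 genes, grouped by step with alternating shading. Open circles are WT vehicle, filled circles WT LPS + IFNγ, open squares KO vehicle and filled squares KO LPS + IFNγ. Markers are means and lines run from the lowest to the highest of 4 litters, with the value of 0 for Slc16a3 in 1 KO vehicle library drawn to the foot of the axis. Gapdh, Pkm and Eno1 lie at the top, and Slc16a3 and Hk2 at the bottom.

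The first comparison asked how these genes respond to LPS + IFNγ in WT astrocytes, with litters as blocks. In WT litters 23 of the 39 genes rose and 5 fell (limma, adjusted p below 0.05 over all genes). Of all genes tested, 24.9% rose and 21.9% fell, so that rises made up 59% of the members and falls 12.8%. The median response of the members was 0.32 on the log2 scale, beside -0.02 for all genes. In each of the 4 WT litters the median of the members was between 0.27 and 0.37. In KO litters 24 genes rose, against 26.6% of all genes, and 7 fell, against 25.5%. The KO median was 0.21 beside -0.02 for all genes, and per litter it lay between 0.19 and 0.29. Across both genotypes 21 members rose in each, where 19.9% of all genes did, and 4 (Pfkfb2, Ldhb, Pdk2 and Pygb) fell in each, where 16.8% of all genes did.

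These counts rest on the TMM scaling, which sets the bulk of genes near 0. With the libraries scaled to total reads instead, an alternative added after the data were seen, the median response of all genes fell by 0.17 in WT and by 0.18 in KO. The WT counts then became 21 rises, where 15.5% of all genes rose, and 8 falls, where 36.3% fell. The KO counts became 14 rises, against 16.9% of all genes, and 10 falls, against 39.3%. The member medians were then 0.15 and 0.03, still above those of all genes at -0.18 and -0.20. The rises no longer called ran from 0.15 (Pfkm in WT) to 0.34 (Eno2 in KO). Rises of that size are therefore relative to the bulk of genes.

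**Figure D2:**
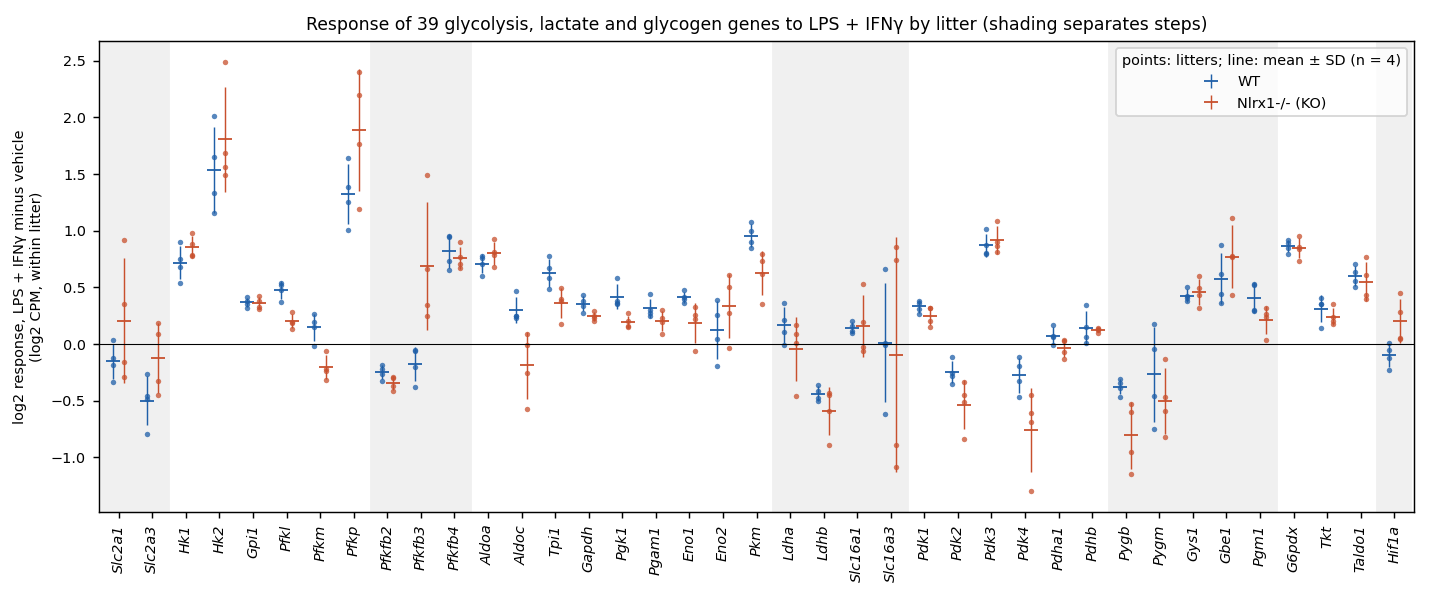
Log2 response to LPS + IFNγ (log2 CPM, stimulated minus vehicle of the litter) of the 39 genes in order of step, WT in blue and KO in orange. Points are litters, and the bars give the mean ± SD of 4. Hk2, Pfkp, Pkm, Pdk3 and G6pdx lie above 0 in all 8 litters, Ldhb, Pdk2, Pfkfb2 and Pygb below 0 in all 8, and Pfkfb3 lies below 0 in the 4 WT litters and above 0 in the 4 KO litters.

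At the entry of glucose, neither of the main carriers rose. Slc2a1 (GLUT1), the carrier of astrocytes and the blood-brain barrier, had a response of -0.15 (SE 0.15, adjusted p = 0.44) in WT and 0.21 (SE 0.15, adjusted p = 0.275) in KO, and passed in neither. Its KO litters disagreed in sign, at -0.16, 0.36, -0.29 and 0.92 for litters 1 to 4. Slc2a3 (GLUT3), known as the neuronal carrier, fell in WT by 0.50 on the log2 scale, that is 1.41-fold (adjusted p = 0.00291), in all 4 litters. In KO its response was -0.12 (SE 0.11, adjusted p = 0.367), with 2 litters on each side of 0.

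Hexokinase, which phosphorylates glucose, rose in both its forms. Hk2 (GRCm39 chr6:82699740-82751469, minus strand), the inducible form that binds mitochondria, stood in WT litters 1 to 4 at 2.55, 1.57, 1.92 and 1.03 log2 CPM in vehicle and at 3.70, 3.22, 3.26 and 3.04 after LPS + IFNγ. The KO litters were at 2.51, 3.80, 1.96 and 2.37 in vehicle and at 4.20, 5.29, 3.52 and 4.86 after stimulation. Every litter rose, and the WT groups did not overlap, whereas in KO the vehicle library of litter 2 was above the stimulated library of litter 3. The response was 1.54 (SE 0.18, adjusted p = 2.62e-05) in WT, 2.9-fold, and 1.81 (SE 0.18, adjusted p = 5.79e-06) in KO, 3.5-fold. Hk1 (chr10:62104621-62215687, minus strand), the housekeeping form, moved from 7.0, 7.25, 7.23 and 7.47 to 7.90, 8.0, 7.91 and 8.02 log2 CPM in WT. In KO it moved from 7.11, 7.11, 7.19 and 6.93 to 7.90, 8.0, 7.96 and 7.92. All stimulated libraries were above all vehicle libraries, and the responses were 0.72 (SE 0.06, adjusted p = 1.37e-06) and 0.86 (SE 0.06, adjusted p = 2.60e-07). Since Hk1 is far more abundant per length, Hk2 still made up only 2.86% ± 0.67 (SD, n = 4) of the pair in stimulated WT and 6.58% ± 3 in stimulated KO libraries, with 10.1% in KO litter 2 as the highest share. Gpi1, which isomerises glucose 6-phosphate, rose by 0.37 in WT and 0.36 in KO.

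Phosphofructokinase changed its make-up at the level of transcripts. Pfkp (chr13:6629798-6698970, minus strand), the platelet form, stood at 4.96, 5.17, 5.57 and 5.51 log2 CPM in WT vehicle and at 6.60, 6.56, 6.82 and 6.52 in stimulated WT litters 1 to 4. In KO it went from 4.97, 4.88, 5.61 and 4.69 to 6.74, 7.08, 6.80 and 7.09. The stimulated libraries were above all vehicle libraries in both genotypes, with responses of 1.32 (SE 0.16, adjusted p = 3.13e-05) in WT, 2.5-fold, and 1.89 (SE 0.16, adjusted p = 1.37e-06) in KO, 3.7-fold. Its share of the phosphofructokinase TPM went from 10.3% ± 1.36 to 20.2% ± 2.37 in WT and from 9.74% ± 1.9 to 30.8% ± 6.19 in KO. These shares include non-coding transcripts of Pfkp, so they are high estimates for the enzyme. Mean coding TPM of Pfkp was 13.3 in vehicle and 19.9 after stimulation in WT, and 10.7 and 23.4 in KO. Pfkm, all of it coding, stood at 159 and 152 TPM in WT and at 136 and 105 in KO. Not all of this rise was in coding transcripts. Salmon assigned 34.2% ± 19.2 (SD, n = 4) of the Pfkp TPM in WT vehicle and 55.0% ± 5.3 in stimulated WT libraries to predicted non-coding transcripts, and in KO 34.8% ± 18.4 and 55.9% ± 9.7. On the TPM scale, which carries no TMM factor, the whole gene went up 2.15-fold in WT (geometric mean of 4 litters) and 3.28-fold in KO. Coding transcripts alone went up 1.51-fold in WT (range 1.17 to 2.28) and 2.24-fold in KO (1.53 to 3.19). Short reads split such overlapping transcripts with error, as the range of the vehicle shares from 7.74% to 56.1% shows. Pfkl, the liver form, rose by 0.48 in WT and 0.20 in KO. Under scaling to total reads the KO rise of Pfkl was lost (0.03, adjusted p = 0.738).

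Pfkm (chr15:97990451-98031417, plus strand), the most abundant form, was the only member called in opposite directions in the 2 genotypes. WT litters 1 to 4 had 7.59, 7.76, 7.72 and 7.87 log2 CPM in vehicle and 7.57, 7.91, 7.99 and 8.07 after stimulation. The KO litters had 7.74, 7.41, 7.71 and 7.42 and 7.50, 7.19, 7.65 and 7.11. The WT and KO groups each overlapped between treatments, and the within-litter responses were -0.02, 0.15, 0.26 and 0.20 in WT and -0.23, -0.22, -0.06 and -0.31 in KO. The fall in KO was -0.20 (SE 0.06, adjusted p = 0.00889). The WT rise of 0.15 (SE 0.06, adjusted p = 0.0489) is at the edge of the threshold. It is lost with edgeR (adjusted p = 0.0953), with DESeq2 (0.128), with total-read scaling (-0.02, adjusted p = 0.794) and without WT litter 2 (0.125), 3 (0.211) or 4 (0.153) or KO litter 1 (0.0658) or 2 (0.0526).

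The PFKFB enzymes make and break fructose 2,6-bisphosphate, the main activator of phosphofructokinase. Pfkfb4 rose in all 8 litters, by 0.82 (SE 0.09, adjusted p = 1.08e-05) in WT and 0.76 (SE 0.09, adjusted p = 1.64e-05) in KO. Pfkfb2 fell in all 8, by 0.25 on the log2 scale in WT (adjusted p = 0.00549) and by 0.34 in KO (adjusted p = 0.000509). Pfkfb3 (chr2:11476244-11558888, minus strand), whose product has the strongest kinase activity of the family, fell in all 4 WT litters and rose in all 4 KO litters. Its WT levels in litters 1 to 4 were 5.25, 5.47, 5.53 and 5.82 log2 CPM in vehicle and 5.19, 5.42, 5.15 and 5.61 after LPS + IFNγ. Its KO levels were 4.96, 4.66, 4.98 and 3.93 in vehicle and 5.22, 5.32, 5.32 and 5.42 after LPS + IFNγ. The KO vehicle libraries were below all other libraries, with litter 4 the lowest, and the stimulated libraries of the genotypes overlapped. The response in KO was 0.69 (SE 0.16, adjusted p = 0.00306), 1.61-fold, while in WT it was -0.17 (SE 0.16, adjusted p = 0.387). The difference of the 2 responses did not pass in limma (adjusted p = 0.167) or edgeR (0.223) and passed in DESeq2 (0.0201).

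In the lower pathway, from aldolase to pyruvate kinase, 8 of 9 genes rose in each genotype. Aldoa (chr7:126393822-126399923, minus strand) went from 8.83, 8.92, 8.93 and 9.03 to 9.61, 9.68, 9.63 and 9.63 log2 CPM in WT litters 1 to 4 and from 8.85, 8.96, 9.07 and 8.77 to 9.63, 9.77, 9.74 and 9.70 in KO. The groups did not overlap, and the responses were 0.71 (SE 0.05, adjusted p = 3.58e-07) and 0.80 (SE 0.05, adjusted p = 1.14e-07). Aldoc (chr11:78213619-78218889, plus strand) behaved differently. Its WT levels were 8.76, 9.07, 9.01 and 9.31 in vehicle and 9.01, 9.30, 9.48 and 9.55 after stimulation, and its KO levels were 8.96, 8.71, 8.98 and 8.95 and 8.95, 8.45, 9.07 and 8.38. All WT litters rose, by 0.30 (SE 0.09, adjusted p = 0.015), a call lost without WT litter 3 (0.24, adjusted p = 0.088) and with total-read scaling (0.13, adjusted p = 0.27). In KO the response was -0.19 (SE 0.09, adjusted p = 0.0968), with only litter 3 above 0. Aldoa thereby made up 70.1% ± 3.4 (SD, n = 4) of the aldolase TPM in stimulated WT and 79.0% ± 4.21 in stimulated KO libraries.

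Triose phosphate isomerase (Tpi1) rose by 0.63 (SE 0.06, adjusted p = 4.83e-06) in WT and by 0.36 (SE 0.06, adjusted p = 0.00032) in KO, in all 8 litters. Gapdh, the dehydrogenase often used as a reference gene, rose by 0.35 in WT and 0.24 in KO, again in all 8 litters. Pgk1, which makes the first ATP of the payoff steps, rose by 0.42 and 0.20. The mutase Pgam1 rose by 0.32 and 0.20, and the enolase Eno1 by 0.41 and 0.19. In KO the rises of Gapdh, Pgk1, Pgam1 and Eno1 were not called after scaling to total reads, where they measured 0.07, 0.02, 0.03 and 0.01. The KO call of Eno1 was also lost without litter 1 (adjusted p = 0.117), 3 (0.0678) or 4 (0.0605). Gapdh, Pgk1, Pgam1 and Eno1 have processed copies in the mouse genome, and reads shared with such copies make their values less certain. Eno2, the neuronal enolase, was a minor form at 0.94% ± 0.17 (SD, n = 4) of the enolase TPM in WT vehicle. It measured 0.12 (SE 0.13, adjusted p = 0.473) in WT, and it rose by 0.34 (SE 0.13, adjusted p = 0.0476) in KO. The KO call was lost with edgeR (adjusted p = 0.066) and with total-read scaling (0.16, adjusted p = 0.323). That call was also lost without KO litter 2 (0.182), 3 (0.149) or 4 (0.0806) or WT litter 1 (0.0594), 3 (0.0647) or 4 (0.0504).

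Pyruvate kinase Pkm (chr9:59563364-59586663, plus strand) was the gene with the largest WT response among these. WT litters 1 to 4 held 9.99, 9.85, 9.79 and 9.91 log2 CPM in vehicle and 10.84, 10.85, 10.87 and 10.80 after stimulation. KO litters held 10.13, 10.42, 10.02 and 10.05 and 10.86, 10.77, 10.82 and 10.67. The stimulated libraries of both genotypes lay between 10.67 and 10.87, while among the vehicle libraries all 4 of KO were above all 4 of WT. The response was 0.95 (SE 0.07, adjusted p = 4.06e-07) in WT, 1.94-fold, and 0.62 (SE 0.07, adjusted p = 1.28e-05) in KO, 1.54-fold. A single coding transcript of 2221 bases held between 95.7% and 97.4% of the Pkm TPM in every library, so the transcript make-up of the gene moved little with treatment or genotype.

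**Figure D3:**
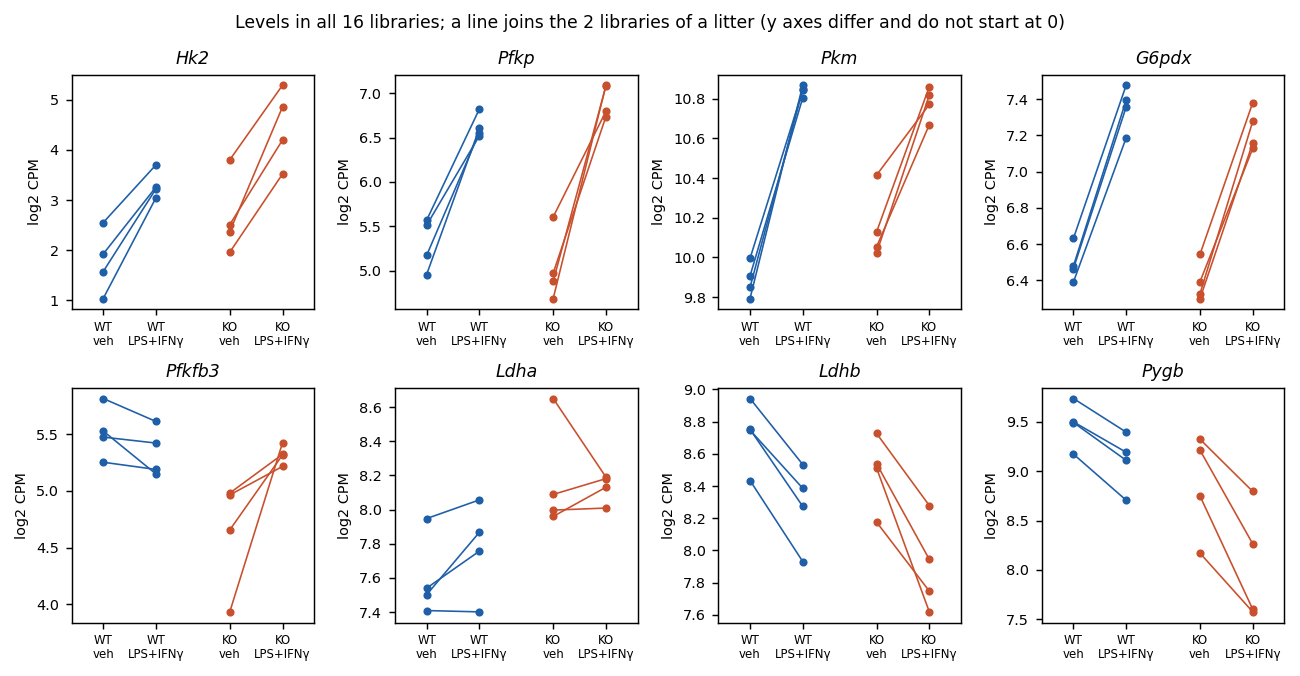
Level (log2 CPM) of 8 genes in all 16 libraries, with a line from the vehicle to the stimulated library of each litter, WT in blue and KO in orange (axes differ between panels and do not start at 0). Hk2, Pfkp, Pkm and G6pdx rise along every line, Ldhb and Pygb fall along every line, Pfkfb3 falls along the WT lines and rises along the KO lines, and Ldha of KO litter 2 starts at 8.65 in vehicle.

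At the lactate step, the subunit genes did not rise with the glycolytic enzymes. Ldhb (chr6:142435672-142454586, minus strand) fell in both genotypes. Its levels in WT litters 1 to 4 went from 8.43, 8.75, 8.75 and 8.94 to 7.93, 8.39, 8.27 and 8.53 log2 CPM and in KO from 8.54, 8.18, 8.73 and 8.51 to 7.94, 7.75, 8.28 and 7.62. All 8 litters fell, although treatments overlapped across litters in both genotypes. The decrease was 1.35-fold in WT (log2 -0.44 (SE 0.07, adjusted p = 0.000238)) and 1.51-fold in KO (log2 -0.59 (SE 0.07, adjusted p = 1.84e-05)). Ldha, the muscle-type subunit that favours lactate, measured 0.17 (SE 0.09, adjusted p = 0.142) in WT and -0.05 (SE 0.09, adjusted p = 0.696) in KO, where litter 2 fell by 0.46 and the others lay between 0.01 and 0.17. Without KO litter 2 the response of WT Ldha passed the test at an unaltered 0.17 (adjusted p = 0.0319), since the spread is shared between genotypes. With Ldhb lower, the share of Ldha in the pair went from 26.2% ± 6.2 (SD, n = 4) to 35.0% ± 8.13 in WT and from 38.1% ± 8.97 to 47.1% ± 6.03 in KO. The monocarboxylate carrier Slc16a1 (MCT1) measured 0.14 in WT and 0.16 in KO and passed in neither.

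The kinases that switch off pyruvate dehydrogenase moved in different directions. Pdk3 (chrX:92789513-92876389, minus strand) stood at 4.69, 4.76, 4.71 and 4.71 log2 CPM in WT vehicle and 5.49, 5.78, 5.52 and 5.58 in stimulated WT litters 1 to 4, and at 4.71, 4.80, 4.78 and 4.86 and 5.61, 5.89, 5.60 and 5.72 in KO. Vehicle and stimulated libraries did not overlap. It rose by 0.87 (SE 0.07, adjusted p = 6.89e-07) in WT and by 0.92 (SE 0.07, adjusted p = 4.00e-07) in KO. Pdk1 rose by 0.33 and 0.25, the KO rise being lost with total-read scaling (0.07, adjusted p = 0.342). Pdk2, the most abundant kinase in vehicle libraries, fell by 0.25 in WT (adjusted p = 0.0158) and by 0.53 in KO (adjusted p = 8.58e-05), in all 8 litters. The WT fall of Pdk2 was lost without WT litter 1 (adjusted p = 0.0737), 2 (0.0561) or 3 (0.0603). Pdk4, which is induced by fasting and fatty acids, fell in KO by 1.69-fold (log2 -0.76 (SE 0.12, adjusted p = 0.000202)) and measured -0.28 (SE 0.12, adjusted p = 0.0737) in WT, with all 4 litters below 0. The share of Pdk2 in the kinase TPM went from 63.8% ± 1.27 (SD, n = 4) to 53.5% ± 3.13 in WT and from 60.8% ± 2.39 to 46.3% ± 5.56 in KO, while that of Pdk3 went from 12.1% ± 1.23 to 23.2% ± 2.68 and from 14.9% ± 2.64 to 32.8% ± 7.22. These shares are again low estimates for Pdk3 and high ones for Pdk2. The dehydrogenase subunits Pdha1 (0.07 in WT and -0.04 in KO) and Pdhb (0.14 and 0.12) passed in neither genotype.

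Among the glycogen genes of the set Gys1, Gbe1 and Pgm1 rose and the main phosphorylase fell. Pygb (chr2:150628628-150673685, plus strand), which breaks glycogen down in brain, had WT levels in litters 1 to 4 of 9.17, 9.49, 9.50 and 9.74 log2 CPM in vehicle and 8.71, 9.11, 9.19 and 9.40 after stimulation. In KO the levels were 9.21, 8.17, 9.32 and 8.75 and 8.26, 7.57, 8.80 and 7.60. All 8 litters fell, each KO litter by more than any WT litter, and KO litters 2 and 4 ended lowest. The decrease was 1.3-fold in WT (log2 -0.38 (SE 0.09, adjusted p = 0.00335)) and 1.75-fold in KO (log2 -0.81 (SE 0.09, adjusted p = 9.10e-06)). Pygm, the muscle phosphorylase, measured -0.27 (SE 0.17, adjusted p = 0.21) in WT and fell in KO by 0.50 (adjusted p = 0.0237), a call lost without KO litter 1 (0.0588), 2 (0.11) or 4 (0.0751). Glycogen synthase Gys1 rose by 0.43 in WT and 0.46 in KO, and the branching enzyme Gbe1 by 0.58 (SE 0.11, adjusted p = 0.00135) and 0.77 (SE 0.11, adjusted p = 0.000134). Pgm1, which links glucose 1-phosphate and glucose 6-phosphate, rose by 0.41 and 0.21. The KO call of Pgm1 was lost without KO litter 1 (adjusted p = 0.052) or 4 (0.0561) and with total-read scaling (0.04, adjusted p = 0.615).

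All 3 pentose phosphate genes rose in both genotypes. G6pdx (chrX:73449857-73472819, minus strand), the entry enzyme and the source of NADPH, went in WT litters 1 to 4 from 6.39, 6.48, 6.46 and 6.63 to 7.19, 7.40, 7.36 and 7.48 log2 CPM and in KO from 6.39, 6.33, 6.54 and 6.30 to 7.13, 7.28, 7.38 and 7.16. Its litters were among the most uniform of the set, and the responses were 0.86 (SE 0.05, adjusted p = 4.44e-08) and 0.85 (SE 0.05, adjusted p = 4.92e-08), that is 1.82-fold and 1.8-fold. Transaldolase (Taldo1) rose by 0.60 (SE 0.06, adjusted p = 1.06e-05) and 0.55 (SE 0.06, adjusted p = 1.67e-05), and transketolase (Tkt) by 0.31 and 0.24. With total-read scaling the Tkt rise in KO was not called (0.07, adjusted p = 0.326).

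The transcript of Hif1a, the oxygen-labile subunit of HIF-1 and an activator of many of these genes, moved little. It measured -0.10 (SE 0.07, adjusted p = 0.254) in WT and rose by 0.21 (SE 0.07, adjusted p = 0.0213) in KO. The KO call was lost without KO litter 2 (0.13, adjusted p = 0.118) or 4 (0.18, adjusted p = 0.0772) and with total-read scaling (0.03, adjusted p = 0.691). With total-read scaling WT Hif1a was instead called lower (-0.27, adjusted p = 0.00333). HIF-1 is known to be regulated mainly through the stability of this protein, which was not measured.

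The study asked whether Nlrx1-/- astrocytes respond differently from WT. For the difference of the responses, KO minus WT, 0 members passed in limma and 0 in edgeR, as did 0 of all genes in each (0% higher and 0% lower). The lowest adjusted p of any member was 0.164, for Pfkm, and 15 members had an unadjusted p below 0.05, of which 4 were higher in KO, beside 2786 of all 16707 genes (16.7%). DESeq2 called 1 member higher (Pfkfb3), where it called 0.691% of all genes higher, and 2 lower (Pfkm and Aldoc), where it called 1.14% lower. Pfkfb3 had the largest difference, 0.86 (SE 0.22, adjusted p = 0.167). The next were Pfkp at 0.57 (SE 0.22, adjusted p = 0.239), Aldoc at -0.49 (SE 0.12, adjusted p = 0.167), Pdk4 at -0.48 (SE 0.17, adjusted p = 0.197), Pygb at -0.43 (SE 0.12, adjusted p = 0.169), Slc2a3 at 0.37 (SE 0.16, adjusted p = 0.262), Slc2a1 at 0.36 (SE 0.21, adjusted p = 0.425), Pfkm at -0.35 (SE 0.08, adjusted p = 0.164) and Pkm at -0.33 (SE 0.10, adjusted p = 0.177). Without KO litter 3 limma called 2 members higher (Pfkfb3 and Pfkp) and 4 lower (Pfkm, Aldoc, Pkm and Pygb), beside 2.26% and 2.66% of all genes.

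Counted without a test, the KO responses lay above all WT responses for 2 members, Pfkfb3 and Hif1a, beside 3.06% of all genes. They lay below all WT responses for 7 members (Pfkl, Pfkm, Aldoc, Pgk1, Eno1, Pkm and Pygb), beside 5.25% of all genes. The 7 thus made up 17.9% of the set, and 6 of them (all but Pygb) rose in WT, Pfkm at the edge of the threshold. For G6pdx, Gpi1, Gys1 and Pdk3 the 2 responses were close, with differences of -0.02 (SE 0.07), -0.01 (SE 0.06), 0.03 (SE 0.08) and 0.05 (SE 0.09).

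Levels of the genotypes were then compared within each treatment, in a fit of the 4 conditions without a litter term. In vehicle 0 members were called higher (0% of all genes) and 0 lower (0.00599% of all genes) in limma, and 0 in edgeR, which called 0 of all genes. An unadjusted p below 0.05 was reached by 10 members, 25.6% of them, of which 6 were higher in KO, beside 21.1% of all genes. DESeq2 called 4 higher (Eno1, Pkm, Ldha and Pygm) and 1 lower (Pfkfb3), beside 2.84% and 1.77% of all genes. The KO libraries were above all WT libraries for 5 members (Eno1, Pkm, Ldha, Gys1 and Tkt), beside 6.02% of all genes, and below for 1 member, Pfkfb3, beside 3.43%. Pfkfb3 was lower by 1.85-fold in the mean, with a log2 difference of -0.88 (SE 0.19, adjusted p = 0.0928). For Ldha the WT vehicle litters 1 to 4 stood at 7.95, 7.54, 7.50 and 7.41 log2 CPM and the KO litters at 8.09, 8.65, 8.0 and 7.96, a difference of 0.57 (SE 0.16, adjusted p = 0.101). Eno1 differed by 0.35 (SE 0.08, adjusted p = 0.0928) and Pkm by 0.27 (SE 0.08, adjusted p = 0.114). KO litter 2 was the highest vehicle library for Ldha, Eno1, Pkm and Hk2 and the lowest for Pygb. Without WT litter 1, 2 members were called higher (Eno1 and Ldha) and 1 lower (Pfkfb3), beside 1.98% and 0.976% of all genes. Without KO litter 3, 4 were called in each direction, beside 4.12% higher and 5.57% lower of all genes.

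After LPS + IFNγ, 1 member was higher in KO (4.4% of all genes were) and 4 were lower (4.41% of all genes were). The higher member was Gys1, at 0.19 (SE 0.05, adjusted p = 0.0412), with all KO above all WT libraries. The lower members were Pygb at -1.04 (SE 0.27, adjusted p = 0.0368), Aldoc at -0.62 (SE 0.16, adjusted p = 0.0364), Pdk2 at -0.57 (SE 0.17, adjusted p = 0.0473) and Pfkm at -0.52 (SE 0.13, adjusted p = 0.0349). Pygb was thus 2.06-fold lower, with KO litters 2 and 4 near 7.6 log2 CPM and KO litter 3 at 8.80 within the range of the WT litters. For these 4 genes 1 or more KO libraries reached into the WT range. KO libraries were above all WT libraries for 2 members, Gpi1 and Gys1 (7.09% of all genes), and below for 1, Pgk1 (6.23%).

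The 5 calls depended on single litters. Each was lost without WT litter 2, 3 or 4 or KO litter 2 or 4, with adjusted p between 0.0673 and 0.167, although the differences kept their sign. That of Pygb was between -1.04 and -0.88 in those fits, and that of Pfkm between -0.51 and -0.44. That of Gys1 was also lost without WT litter 1 (adjusted p = 0.0551), and that of Pdk2 without KO litter 1 (0.0737). In limma on the stimulated libraries alone all 5 calls were lost, with adjusted p between 0.0699 (Pygb) and 0.1 (Gys1). Without KO litter 3, 4 members were called higher and 8 lower, beside 11.3% and 11.9% of all genes. Without WT litter 1, 0 were higher and 7 lower, beside 5.81% and 6.49% of all genes. In edgeR 0 members were higher and 2 lower, Pfkm (adjusted p = 0.0423) and Aldoc (0.0454), with Pygb at 0.0506, beside 2.65% and 2.38% of all genes. Hk2 had the largest positive difference, 1.16 (SE 0.41, adjusted p = 0.0769), and did not pass in limma. It passed in DESeq2 (1.27, adjusted p = 0.0202), without KO litter 3 (1.48, adjusted p = 0.0132) and at the edge of the threshold with the litter as a random block (adjusted p = 0.05). That block takes account of the 2 libraries of a litter. With it 2 members were higher (Hk2 and Gys1) and 6 lower, beside 5.81% and 6.36% of all genes, and the lower ones then included Pfkl (-0.31, adjusted p = 0.0472) and Pdk1 (-0.37, adjusted p = 0.043). DESeq2 also called 2 higher (Hk2 and Gys1), and 5 lower with Pdk1 among them (adjusted p = 0.0395), beside 7.7% and 7.55% of all genes. Ldha measured 0.36 (SE 0.16, adjusted p = 0.138) and Pfkfb3 -0.02 (SE 0.19, adjusted p = 0.949). The 4 genes called lower moved in the direction of the astrocyte, oligodendrocyte lineage and ependymal marker sums, whose medians were lower in stimulated KO than in stimulated WT cultures (2408 against 3371, 52.7 against 185 and 64.7 against 92.4 TPM). Of these only the ependymal ranges were apart, at 45.8 to 80.8 against 84.3 to 116.6 TPM. The astrocyte markers Slc1a3 (means 11.33 against 11.37 log2 CPM) and Aldh1l1 (10.06 against 10.11) were close between the genotypes. The other astrocyte markers had lower means in stimulated KO. These were Gfap (9.10 against 10.11), Aqp4 (7.91 against 9.24), Slc1a2 (7.89 against 8.84), Sox9 (8.18 against 8.59), Gja1 (7.16 against 8.45) and S100b (1.37 against 3.59). The part of the markers in the differences was not tested.

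**Figure D4:**
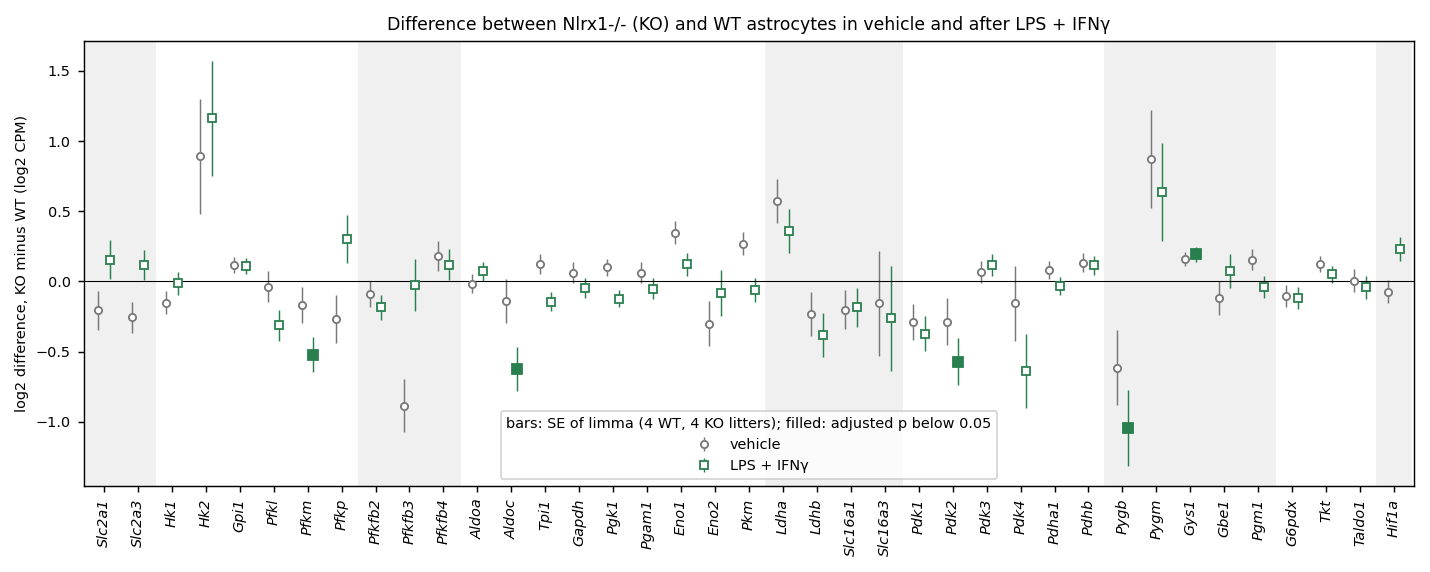
Log2 difference between KO and WT astrocytes (KO minus WT, log2 CPM) for each of the 39 genes in vehicle (grey circles) and after LPS + IFNγ (green squares). Bars are standard errors of limma from 4 litters per genotype, and filled symbols passed at an adjusted p below 0.05. Only Gys1 above 0 and Pfkm, Aldoc, Pdk2 and Pygb below 0 are filled, and Hk2 and Pygm lie above 0 in both treatments with wide bars.

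Other genes of these pathways were taken from lists that do not overlap with the 39. Of 34 other glycolysis and hexose genes 25 were tested, and 9 rose and 4 fell in WT, while 10 rose and 6 fell in KO, with median responses of 0.10 and 0.15. Among those that rose were the hexose carriers Slc2a6, at 3.05 in WT and 2.51 in KO, and Slc2a9, which also carries urate, at 1.88 and 1.92. The insulin-responsive carrier Slc2a4 fell by 1.21 in WT and by 1.55 in KO, and Slc2a13, a myo-inositol carrier, by 0.75 and 0.67. In WT Slc2a10 also fell, by 0.56. In KO the gluconeogenic Fbp1 fell by 2.25 and the enolase Eno4, found in sperm, by 1.43.

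Of 20 other pyruvate and lactate genes 17 were tested, with 7 rises and 1 fall in WT and 5 rises and 1 fall in KO, and medians of 0.17 and 0.06. The phosphatase Pdp2, which reverses the PDK kinases, rose by 1.12 and 0.83, and the dehydrogenase subunit Dlat by 0.48 in WT and 0.46 in KO. Malic enzyme Me1 rose by 0.44 and 0.56, Me3 rose in WT by 0.44, and Pdp1 rose in KO by 0.51. Pyruvate carboxylase Pcx, which in brain is an astrocyte enzyme, fell by 0.28 in WT and by 0.92 in KO.

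Among 22 tested of 24 other glycogen genes, 5 rose and 7 fell in WT, and 4 rose and 10 fell in KO, with medians of -0.07 and -0.23. The phosphorylase kinase subunit Phkg1 fell by 1.34 and 1.42, the liver phosphorylase Pygl by 0.92 and 1.11 and the phosphoglucomutase relative Pgm2l1 by 0.89 in WT and 0.97 in KO. The glycogen-targeting subunit Ppp1r3g fell in KO by 1.74. Ugp2, which makes the UDP-glucose used for glycogen synthesis and is named here after its values were seen, fell by 0.335 in WT (adjusted p = 8.84e-05) and by 0.377 in KO (adjusted p = 2.83e-05). The largest rises were Phka1 (0.38), Pgm2 (0.33) and Phkg2 (0.25) in WT, and Pgm2 (0.49), Phkb (0.26) and Gaa (0.22) in KO. All 3 phosphorylase genes (Pygb, Pygl and Pygm) thus had a negative response in both genotypes, of which Pygm in WT did not pass.

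Of 10 other pentose phosphate genes 9 were tested, and 6 rose and 0 fell in each genotype, with medians of 0.34 and 0.49. The largest responses were Prps2 at 1.16 and 0.90, Pgd, the next NADPH-making enzyme after G6pdx, at 0.86 and 0.91, Rpia at 0.44 and 0.49, and H6pd at 0.34 in WT and 0.58 in KO. No gene of these lists passed for the difference of the responses or between genotypes in vehicle. After LPS + IFNγ Adpgk (0.58) was higher in KO, and Eno4 (-1.74), Bpgm (-0.43), Pcx (-0.71) and the glycogen-targeting subunit Ppp1r3c (-0.92) were lower.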

How the data were processed

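RNA-seq of poly-A RNA (not strand-specific) was quantified by the authors with Salmon 1.7.0 against GRCm39 transcripts with the genome as decoy. They deposited for each transcript and library Salmon's expected count, which is not normalised, with the TPM and effective length. They also deposited log2 CPM, which came from length-scaled counts of tximport, kept genes that passed filterByExpr and used TMM factors. The limma version named in the submitters' processing notes is 3.58.1. The CPM table deposited by the authors (a linear signal scaled to library size) was used for the log2(CPM + 1) alternative.

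The log2 CPM table (16707 genes, 16 libraries) was tested here with limma 3.58.1 in R 4.3.3 (eBayes with trend, two-sided, Benjamini-Hochberg over all genes, threshold 0.05). Responses and their difference used litters as blocks within genotype, after the study's design formula, and genotypes were compared in a fit of 4 conditions. Vehicle and stimulated wells of a replicate came from the same mice per the series design, and their deviations correlated at r between 0.07 and 0.36 across genes. Replicate numbers do not pair the genotypes. Libraries held 27259420 to 43752903 read pairs, and the spread between litters sets the precision. Expected counts and TPM were summed per gene over transcripts paired with a symbol (96.7% to 97.3% of reads), which left Pdk3, and to a lesser degree Slc2a3 and Pfkfb4, short. The counts were tested with edgeR 4.0.16 (filterByExpr, minimum count 10, length offsets) and DESeq2 1.42.0 on 16070 genes as alternatives. The code was tested on simulated data. Further alternatives were other scalings, log2(CPM + 1), a filter at a mean of 1 log2 CPM, other blocks and leaving out each litter. Promoters came from RefSeq (GRCm38.p6), and gene positions from GENCODE M39 (GRCm39).

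The members and the pathway lists were chosen with earlier results of these data known. All members were named by step. Full statistics were given for up to 12 called members per comparison with the largest change, and values in every library for up to 12 members called in both genotypes or differing most between them. Of the other lists, counts and the called genes with the 3 largest changes in each direction were given. Some results are not reported here. Deposited values of effective length served only as offsets.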

Additional observations from a re-analysis of the deposited data

Results flagged for a closer look

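Pfkfb3 was marked because its responses to LPS + IFNγ had opposite signs in the genotypes. All 4 WT litters were below 0 (-0.38 to -0.05) and all 4 KO litters above 0 (0.25 to 1.49). The difference of 0.86 on the log2 scale, tested in limma, had an adjusted p of 0.167. In DESeq2 it passed (0.86, adjusted p = 0.0201), where 0.691% of all genes were called higher. In limma it passed without KO litter 3 (0.98, adjusted p = 0.0345), where 2.26% of all genes were called higher. It did not pass in limma when any other single litter was left out.

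In 2 of the 78 groups of 4 litter responses, 1 litter stood apart from the other 3 by Dixon's criterion at its 95% level. Chance flags about 1 in 20 groups. Both were WT litter 3. The Aldoc response of that litter was 0.47, where the other litters were at 0.23 to 0.25, and the Pgk1 response was 0.58, where the others were at 0.36 to 0.38.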

How the results depend on the processing

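Of 3076 member values recomputed under the alternatives, 2924 kept their side of the threshold with no called direction turned, 90 were no longer called, 61 became called and 1 reversed. Among the 2924 were 51 values, called in neither fit, that changed sign. The 1 reversed was the WT response of Pfkm, which became -0.021 with scaling to total reads, an alternative added after the data were seen. With that scaling 8 members fell in WT in place of 5 and 14 rose in KO in place of 24. Without the replicate block 3 fell in WT. In the genotype comparisons a block on the replicate number, which pairs no animals, gave 2 members higher and 1 lower in vehicle and 2 higher and 7 lower after LPS + IFNγ. It is given for completeness, since same-numbered WT and KO libraries correlated at r between -0.09 and 0.18. With litter as a random block 2 were higher and 6 lower after LPS + IFNγ, and with the libraries of that treatment alone 0 were higher and 0 lower. DESeq2 called 1 higher and 2 lower for the difference of responses, 4 higher and 1 lower in vehicle, and 2 higher and 5 lower after LPS + IFNγ. In edgeR 0 were higher and 2 lower after LPS + IFNγ. Leaving out each litter in turn gave 20 to 24 rises and 6 to 8 falls in KO and 21 to 24 rises and 4 to 6 falls in WT. For the difference the range was 0 to 2 higher and 0 to 4 lower, in vehicle 0 to 4 higher and 0 to 4 lower, and after LPS + IFNγ 0 to 4 higher and 0 to 8 lower. Where an arm was left with 3 litters, the spread was shared with the others. The causes of these changes were not tested. With 4 litters per genotype and no litter of both genotypes, litter effects and genotype cannot be told apart beyond the spread between litters. Slc16a3, with at most 23 reads in a library, was limited by depth.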

Other observations

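Among 22 tested of 24 HIF regulators and other HIF targets, a list outside the 39 genes, 7 rose and 7 fell in WT and 9 rose and 8 fell in KO, with median responses of -0.02 and -0.01. The prolyl hydroxylase Egln3, itself a known HIF target, rose by 2.38 on the log2 scale in WT (SE 0.11, adjusted p = 6.05e-09 in limma) and by 2.61 in KO (SE 0.11, adjusted p = 2.33e-09). The mitochondrial protein gene Higd1a rose by 0.97 in WT and the growth factor gene Vegfa by 0.74, and in KO Vegfa rose by 1.37 and the peptide hormone gene Adm by 1.06. In the other direction, the carbonic anhydrase Car12 fell by 1.62 in WT and by 1.93 in KO, Ndrg1 by 1.19 in WT, and Mxi1, a Myc antagonist, by 0.58 in WT and by 0.74 in KO. Bnip3l fell by 0.59 in KO while its relative Bnip3 rose by 0.72. After LPS + IFNγ the oxidoreductase Ero1a was higher in KO by 0.80 (adjusted p = 0.0349) and Mxi1 lower (-0.68, adjusted p = 0.0384). None of the 22 passed for the difference of responses, or between genotypes in vehicle, in limma.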
